A study of Mus musculus with 18 samples.

Results

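Hearts that had lost serum response factor (SRF) without any drug were compared with hearts of control mice that had been infused with phenylephrine (PE), so that deletion alone stood against the adrenergic stimulus alone. The members were the arrays whose sample titles name SRFHKO hearts at day 25 without PE (3 arrays) and control hearts with PE at day 25 (3 arrays), 6 of the 18 arrays of the series. Each array held RNA of the cardiac ventricles of 1 male mouse of 10 weeks, its strain labelled CR7BL6. Control mice were littermates that carry the SRF-flex2neo allele, and all mice of both groups had received 0.7 mg of tamoxifen on 3 days. PE ran at 80 mg/kg/day from an osmotic minipump between day 10 and day 25, counted from the first tamoxifen day. Control hearts of day 25 without PE (3 arrays) gave the level from which either group could depart, and SRFHKO hearts with PE (3 arrays) are given where they carry both conditions. Which recombinase deleted the gene, from which promoter, and whether mice without PE carried pumps is information not given in the sources used here. Groups therefore differ in genotype and in drug at once, and a difference between them belongs to neither alone.

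SRF is a transcription factor that binds CArG boxes and drives actin, sarcomere and other muscle genes, and its loss from adult heart muscle is known to lead to dilation and failure. PE activates alpha-1 adrenergic receptors, whose Gq signalling enlarges cardiomyocytes. Stress of either kind is classically marked by fetal cardiac genes such as the natriuretic peptides, skeletal alpha-actin and the slow myosin Myh7.

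Of the 2 probe sets for Srf itself, the brighter read 7.48, 7.16 and 7.63 in the 3 SRFHKO hearts and 7.72, 7.88 and 7.20 in the 3 PE hearts, where every level here is log2(scaled signal + 2). These values overlapped, with a difference, SRFHKO minus PE, of -0.17 ± 0.19 (SE). The dimmer read 5.85, 5.02 and 5.68 in SRFHKO, 6.20, 6.14 and 6.00 in PE and 6.09, 5.97 and 6.12 in untreated control hearts. On it SRFHKO hearts lay below both other groups, and the difference from PE hearts was -0.60 ± 0.19 (95% interval -0.999 to -0.19; adjusted p = 0.246 over probe sets). The mean of both was -0.39. Their position relative to the deleted part of the gene was not known, so neither checks the genotype. Cardiomyocyte markers were bright on all 6 arrays, with a mean log2 level over 17 genes between 12.46 and 12.83, as cardiac tissue requires.

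Of 12610 genes tested, 21 separated the groups at an adjusted p below 0.05 (0.167%), 8 of them higher (0.0634%) and 13 lower (0.103%) in SRFHKO than in PE hearts. All 21 had groups that did not overlap, as did 16.6% of all genes, and 15 of the 21 differed at least 2-fold. At an unadjusted p below 0.05 there were 711 genes higher and 712 lower, together 1423 of the 12610. At the other end, 5632 genes (44.7%) reached like levels, here a 95% interval of the difference lying wholly within 1.5-fold either way. The remaining 6957 genes (55.2%) were neither separated nor shown to be alike. The median difference over all genes was -0.00325 and the median half-width of the 95% interval 0.42, both on the log2 scale.

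**Figure D1:**
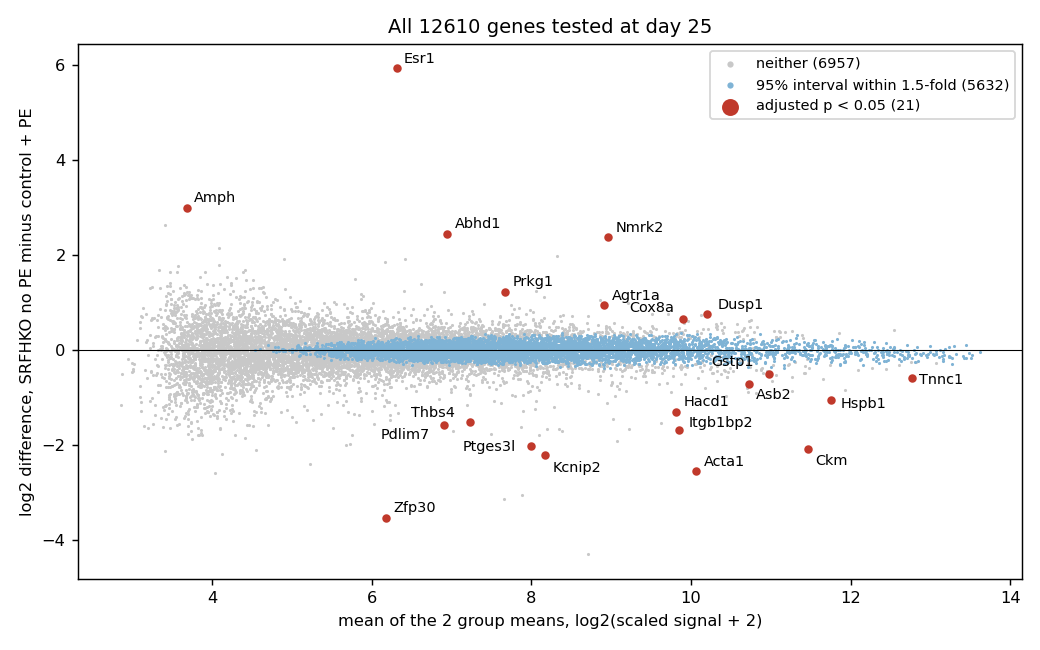
Each point is 1 of the 12610 genes, with the mean of both group means on the horizontal axis, as log2(scaled signal + 2), and the log2 difference, SRFHKO without PE minus control with PE, on the vertical axis (n = 3 arrays per group). The 21 genes past the threshold are named, from Esr1 at 5.94 to Zfp30 at -3.52, and the 5632 genes at like levels form the band around 0.

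The 13 lower genes included actin, troponin, costamere and creatine kinase genes of cardiac muscle. Acta1, skeletal alpha-actin and a fetal cardiac gene, read 8.90, 8.29 and 9.19 in SRFHKO and 11.05, 11.46 and 11.50 in PE hearts. Every SRFHKO heart lay below every PE heart. The difference was -2.54 ± 0.36 (SE; adjusted p = 0.0014), or 5.83-fold. Untreated control hearts, at 10.32, 9.81 and 10.55, lay between the groups: on the log2 scale, SRFHKO minus untreated was -1.43 (adjusted p = 0.0408), and PE hearts exceeded them by 1.11 ± 0.36 without passing the test (adjusted p = 0.261).

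The stretch of DNA in front of Acta1 is shown because it holds a CArG box, CC and GG around A or T bases, which was searched on both strands within 250 bases before to 50 bases after the RefSeq start of each gene (GRCm38.p6). Such a box stood in 3 of the 11 lower genes with a promoter in the table (27.3%), in 0 of 6 higher ones, and in 161 of 10149 genes tested (1.59%). The other holders were Asb2 and Gstp1, printed after their values had been seen. The 150 bases before each start follow, 5′ to 3′, with the box in capitals.
Acta1 chr8:123894776-123894925, minus strand: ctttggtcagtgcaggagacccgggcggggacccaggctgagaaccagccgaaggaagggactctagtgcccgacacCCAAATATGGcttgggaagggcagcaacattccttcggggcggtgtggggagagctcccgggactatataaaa
Asb2 chr12:103356002-103356151, minus strand: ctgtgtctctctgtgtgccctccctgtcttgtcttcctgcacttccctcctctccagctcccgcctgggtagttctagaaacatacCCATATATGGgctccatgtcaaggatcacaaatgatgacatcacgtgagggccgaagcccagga
Gstp1 chr19:4037913-4038062, minus strand: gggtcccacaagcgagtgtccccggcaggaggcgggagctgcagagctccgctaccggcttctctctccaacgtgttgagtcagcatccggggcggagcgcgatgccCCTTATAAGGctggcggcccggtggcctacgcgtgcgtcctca
The box began 73 bases before the start in Acta1, 64 in Asb2 and 43 in Gstp1, where it overlaps the letters of a TATA box. Among actin and cytoskeletal genes known to depend on SRF, 9 of the 30 with a promoter in the table (30%) held one. A match describes letters and not binding.

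Other members of the contractile apparatus and its attachments were lower by smaller or similar amounts. Itgb1bp2, which encodes the integrin-binding stretch protein melusin, read 9.37, 8.64 and 9.03 in SRFHKO and 10.70, 10.82 and 10.58 in PE hearts, a difference of -1.68 ± 0.21 (adjusted p = 0.000372). Tnnc1, cardiac troponin C, read 12.60, 12.39 and 12.44 against 13.04, 12.99 and 13.15 (-0.59 ± 0.09, adjusted p = 0.00462). For melusin and Tnnc1 the PE hearts overlapped untreated control hearts, which spanned 10.55 to 10.84 and 12.96 to 13.18. Pdlim7, a PDZ-LIM protein that links to actin, differed by -1.57 ± 0.20 in the probe set used (SRFHKO 6.50, 6.17 and 5.70, PE 7.85, 7.51 and 7.69, adjusted p = 0.000603). Its other probe sets gave -0.37 and 0.12, and the mean of the probe sets, -0.60, did not pass (adjusted p = 0.112). Asb2, the substrate-binding part of a ubiquitin ligase that targets filamins, differed by -0.71 ± 0.12 (SRFHKO 10.57, 10.17 and 10.36, PE 11.17, 11.06 and 11.00, adjusted p = 0.013). Leaving out SRFHKO replicate 2 or 3 or PE replicate 1 lost the Asb2 call (adjusted p between 0.0732 and 0.119). Apart from the other Pdlim7 probe sets, all SRFHKO hearts lay below all PE hearts for these genes.

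Energy transfer and repolarisation each contributed a gene with a difference over 4-fold. Ckm, the muscle creatine kinase, read 10.87, 9.76 and 10.65 in SRFHKO and 12.59, 12.33 and 12.58 in PE hearts (-2.07 ± 0.22, adjusted p = 0.000249). Untreated control hearts read 12.59, 12.42 and 12.46, so PE and untreated hearts overlapped and SRFHKO hearts stood below both. Kcnip2, the subunit of the transient outward potassium current also called KChIP2, read 7.02, 7.58 and 6.61 in SRFHKO and 9.57, 8.83 and 9.45 in PE hearts (-2.21 ± 0.25, adjusted p = 0.000259). Its second probe set gave -1.88. Of the other 18 measured ion channel genes, limma's test called 0, with 3 at an unadjusted p below 0.05. Kcnd3, a pore-forming subunit of the same current, stood at 0.65 ± 0.15 (adjusted p = 0.079), opposite in sign to Kcnip2.

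The remaining genes lower in SRFHKO hearts with the untreated level near the PE level were Ptges3l, Hacd1, Gstp1 and Zfp30. Ptges3l, a paralogue of the p23 co-chaperone gene, fell from 9.08, 8.84 and 9.07 in PE to 7.29, 6.77 and 6.91 in SRFHKO hearts (-2.01 ± 0.24, adjusted p = 0.000372), and its second probe set gave -2.42. Hacd1, a muscle dehydratase of very long chain fatty acid elongation, differed by -1.30 ± 0.15 (adjusted p = 0.000259), with -1.28 in its second probe set. Gstp1, a glutathione S-transferase, showed the smallest difference among the 21, -0.49 ± 0.09 (adjusted p = 0.02), on tight groups of 10.80, 10.68 and 10.72 against 11.25, 11.20 and 11.22. Its call was lost without SRFHKO replicate 2 or 3 or PE replicate 1 or 3 (adjusted p between 0.0856 and 0.119). Zfp30, a zinc finger gene, differed by -3.52 ± 0.44 (adjusted p = 0.000397), reading 5.38, 3.98 and 3.91 against 8.13, 7.58 and 8.12. Its second probe set gave 0.30, so the 2 probe sets of Zfp30 disagree in sign.

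Thbs4 and Hspb1 differed in where the untreated hearts lay, since for both the mean of untreated hearts was nearer to SRFHKO hearts. Thbs4, the matricellular protein thrombospondin-4, read 6.36, 6.47 and 6.60 in SRFHKO and 8.35, 7.65 and 7.99 in PE hearts (-1.52 ± 0.21, adjusted p = 0.00135). Untreated hearts read 7.01, 6.95 and 6.59. Hspb1, the small heat shock protein Hsp27, read 11.20, 11.28 and 11.21 in SRFHKO and 12.56, 11.83 and 12.46 in PE hearts, against 11.68, 11.43 and 11.75 in untreated ones. Its difference of -1.05 ± 0.20 passed (adjusted p = 0.0308), and leaving out any 1 of the SRFHKO arrays, or PE replicate 1 or 3, lost the call (adjusted p between 0.0642 and 0.167). The second Hspb1 probe set gave -1.27.

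Among the 8 genes higher in SRFHKO hearts, Nmrk2 was above the untreated level in both groups and further above it after deletion. It encodes the muscle nicotinamide riboside kinase, which phosphorylates nicotinamide riboside, a step towards NAD. Its levels were 10.56, 9.75 and 10.16 in SRFHKO, 7.94, 7.82 and 7.57 in PE and 5.97, 5.45 and 6.09 in untreated hearts. All 3 groups were apart. SRFHKO exceeded PE hearts by 2.38 ± 0.36, or 5.22-fold (adjusted p = 0.00341), and untreated hearts by 4.32 (adjusted p = 5.56e-06). PE hearts exceeded untreated hearts by 1.94, which did not pass (adjusted p = 0.0676). Of the other 19 measured NAD genes, 0 passed and 2 had an unadjusted p below 0.05; Nampt, the salvage enzyme, was at like levels (difference 0.03 ± 0.15) in the probe set used, with -0.25 and 0.26 in the other 2.

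Esr1, the oestrogen receptor alpha, showed the largest difference of all, 5.94 ± 0.77 (adjusted p = 0.000603). SRFHKO hearts read 9.46, 7.88 and 10.50 and PE hearts 2.27, 3.84 and 3.93, with 1 PE array below the filter limit of 3.58. Raising that array to the limit gave at least 45.2-fold. The second Esr1 probe set differed by 0.06 ± 0.35 (adjusted p = 0.978 over probe sets), so the excess was read by a single probe set. That probe set read between 6.18 and 10.50 on the 10 SRFHKO arrays of the series, day 8 and PE included, and between 2.03 and 4.51 on the 8 control arrays. Tamoxifen-inducible recombinases commonly carry a modified stretch of an oestrogen receptor; whether this probe set reads such a transcript here was not tested.

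Amph, Abhd1 and Prkg1 followed. Amph, the membrane-curving protein amphiphysin, read 4.82, 5.52 and 5.20 in SRFHKO hearts, and all 3 PE arrays (2.20, 1.93 and 2.42) lay below the filter limit. The difference as measured was 3.00 ± 0.57 (adjusted p = 0.0292). With the PE arrays raised to the limit it was at least 3.03-fold, a bound that was not tested itself. The call was lost without SRFHKO replicate 2 or 3 or any 1 PE array (adjusted p between 0.0691 and 0.171). Abhd1, a hydrolase gene, read 7.80, 8.56 and 8.16 against 6.43, 4.50 and 6.23 (2.45 ± 0.42, adjusted p = 0.013), with untreated hearts at 6.68, 7.49 and 7.22. Without SRFHKO replicate 2 or 3 it did not pass (adjusted p = 0.114 and 0.0617). For Abhd1 the untreated mean lay between both groups and nearer to SRFHKO. For Amph it was nearer to SRFHKO as measured, and nearer to PE hearts with levels below the filter limit raised to it (0.45 above PE and 1.15 below SRFHKO). Prkg1, the cGMP-dependent protein kinase, read 8.28, 8.17 and 8.42 against 6.77, 7.37 and 7.03 (1.23 ± 0.21, adjusted p = 0.013), with 1.57 in its second probe set. Leaving out SRFHKO replicate 3 or PE replicate 1 or 3 lost its call (adjusted p between 0.0765 and 0.101). Its untreated hearts, at 6.87, 7.08 and 7.38, overlapped the PE hearts.

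Signalling and respiratory genes completed the higher set. Agtr1a, the angiotensin II type 1a receptor, read 9.44, 9.47 and 9.25 in SRFHKO and 8.50, 8.67 and 8.16 in PE hearts, a 1.92-fold difference (adjusted p = 0.013). It did not pass without SRFHKO replicate 2 or PE replicate 1 or 3 (adjusted p between 0.0506 and 0.114), with the 12 arrays of day 25 (adjusted p = 0.0568), or with the replicate number as a block (adjusted p = 0.0766). Dusp1, a phosphatase that switches off MAP kinases, read 10.64, 10.47 and 10.63 against 9.92, 9.82 and 9.72, a 1.70-fold difference (adjusted p = 0.013), and did not pass without SRFHKO replicate 3 or PE replicate 3 (adjusted p = 0.0841 and 0.0882). Cox8a, a subunit of cytochrome c oxidase, read 10.28, 10.16 and 10.24 against 9.51, 9.50 and 9.71, a 1.57-fold difference (adjusted p = 0.00338), with 0.49 in its second probe set. For all 3 genes every SRFHKO heart was above every PE heart.

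**Figure D2:**
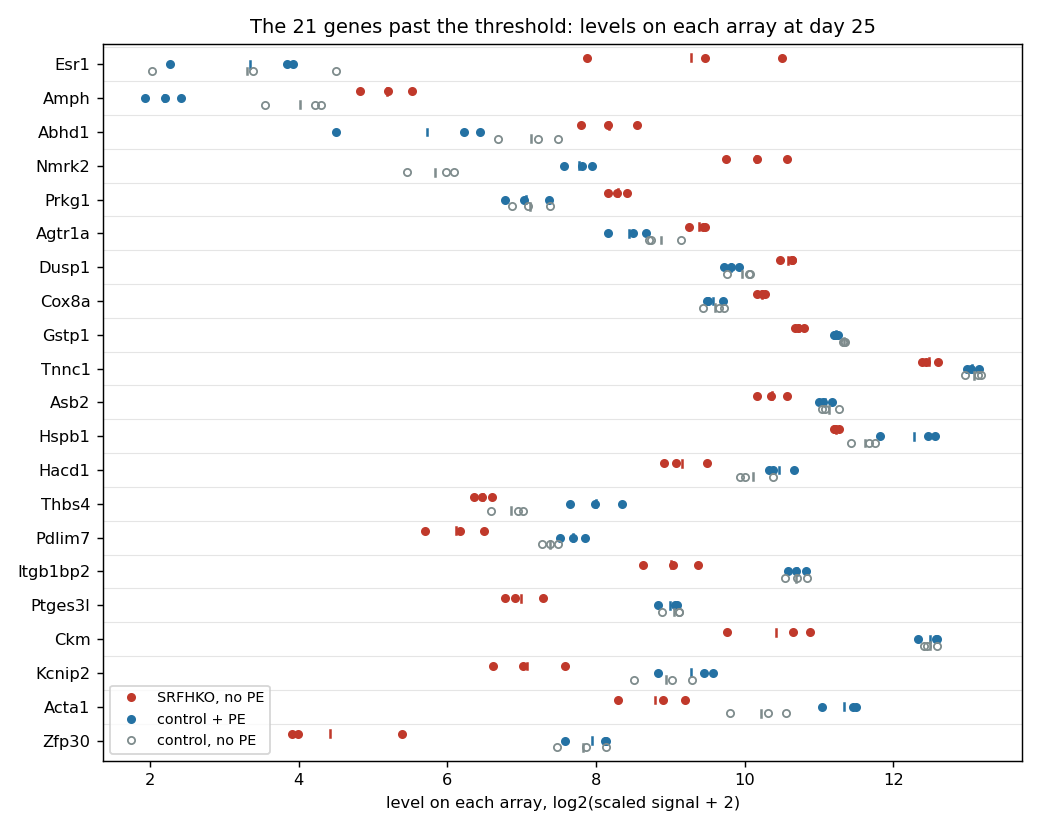
Level on each array at day 25, as log2(scaled signal + 2), for the 21 genes past the threshold, ordered by their difference; points are arrays and short bars group means (n = 3 per group). SRFHKO and PE hearts do not overlap in any of the 21 rows, and the untreated control mean lies nearer to the PE mean for 17 genes as plotted, or 18 with levels below the filter limit raised to it.

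Measured from untreated control hearts, the 21 genes departed mainly on the SRFHKO side. The untreated mean lay nearer to the PE mean for 17 genes and nearer to the SRFHKO mean for 4 (Thbs4, Hspb1, Amph and Abhd1). It lay between both group means for 15 genes and beyond the PE mean for 6. With levels below the filter limit raised to it, Amph joined the first group, which gave 18 against 3, and 16 lay between the means against 5 beyond the PE mean. SRFHKO hearts passed the test against untreated hearts for 16 of the 21, where 2.34% of all genes passed, and PE hearts for 0 of 21 (8 at an unadjusted p below 0.05), where 0.0317% passed. These counts share arrays with the comparison that picked the genes and are a description. In SRFHKO hearts that also received PE, 16 of the 21 passed against untreated hearts, where 9.67% of all genes passed. Of these, 15 went the way of SRFHKO hearts, and Thbs4 went the way of PE hearts, with 0.82 (adjusted p = 0.0199).

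Myh7 and Hsp90aa1 were past the threshold against untreated hearts in both groups, each upwards, and did not separate the groups by the test. Myh7, the slow beta myosin heavy chain, read 12.40, 12.66 and 12.30 in SRFHKO and 13.01, 12.55 and 12.74 in PE hearts, against 9.14, 9.41 and 9.82 in untreated ones. It was higher than in untreated hearts by 3.00 after deletion (adjusted p = 0.000562) and by 3.31 under PE (adjusted p = 0.000758). The groups overlapped and differed by -0.31 ± 0.38 (95% interval -1.11 to 0.49), an interval too wide for the 1.5-fold limit. Untreated hearts of day 25 were the lowest for Myh7, and the 2 control hearts of day 8 read 11.89 and 11.94. Hsp90aa1, the inducible cytosolic Hsp90, exceeded untreated hearts by 1.09 after deletion (adjusted p = 0.0105) and by 1.36 under PE (adjusted p = 0.0201), and the groups differed by -0.27 ± 0.21 (95% interval -0.70 to 0.17). Its other probe sets gave -0.48 and -0.72, the latter without overlap (95% interval -1.26 to -0.18), and the mean of all 3 was -0.49 (adjusted p = 0.463). No gene was both past the threshold against untreated hearts in each group and within 1.5-fold between them.

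Under PE, 4 genes in all passed against untreated hearts: Myh7, Hsp90aa1, Enah and 1700025G04Rik. Enah, an actin-elongating protein of the Ena/VASP family, exceeded untreated hearts by 0.88 under PE (adjusted p = 0.028) and by 0.41 after deletion (adjusted p = 0.133). For 1700025G04Rik these values were 0.59 (adjusted p = 0.0459) and 0.22 (adjusted p = 0.259).

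The natriuretic peptides did not separate the groups by the test. Nppb, B-type natriuretic peptide, read 11.42, 11.58 and 11.52 in SRFHKO and 12.29, 12.56 and 12.17 in PE hearts, with untreated hearts at 11.49, 11.48 and 11.71. SRFHKO hearts sat at the untreated level and PE hearts above both. The difference of -0.83 ± 0.28 did not pass in the fit over 18 arrays (adjusted p = 0.245) and passed with the 12 arrays of day 25 (adjusted p = 0.00155) or with the 6 arrays compared (adjusted p = 0.0181). Nppa, atrial natriuretic peptide, read 12.95, 12.997 and 12.87 against 13.28, 13.02 and 13.29 (-0.26 ± 0.16, adjusted p = 0.587). Corin, the protease that activates these peptides, stood at 0.48 ± 0.12 (adjusted p = 0.117).

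Among 24 measured core genes of cardiac stress and contraction, chosen with earlier results known, 1 passed higher and 5 passed lower (0.0634% and 0.103% of all genes). In the probe set used, 7 were at like levels (29.2%, against 44.7% of all genes): Actc1, Myh6, Atp2a2, Srf, Nampt, Ankrd1 and Ppargc1a. For Srf this does not hold of the dimmer probe set, at -0.60 without overlap. Of the other genes with several probe sets, both of Ankrd1, 4 of 6 of Atp2a2, 4 of 5 of Ppargc1a, 1 of 2 of Myh6 and 1 of 3 of Nampt were within the limit. Ankrd1, a stretch-responsive titin-associated protein, read 12.98, 12.87 and 13.10 in SRFHKO and 13.16, 12.72 and 13.15 in PE hearts, a difference of -0.03 ± 0.19. Myh6, the fast alpha myosin heavy chain, differed by -0.17 ± 0.10, and Atp2a2, the calcium pump of the sarcoplasmic reticulum, by -0.17 ± 0.10. Actc1, cardiac alpha-actin, differed by -0.30 ± 0.11, while skeletal alpha-actin differed by -2.54. Myl3, an essential myosin light chain, narrowly missed the threshold at -0.57 ± 0.11 (adjusted p = 0.0537).

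**Figure D3:**
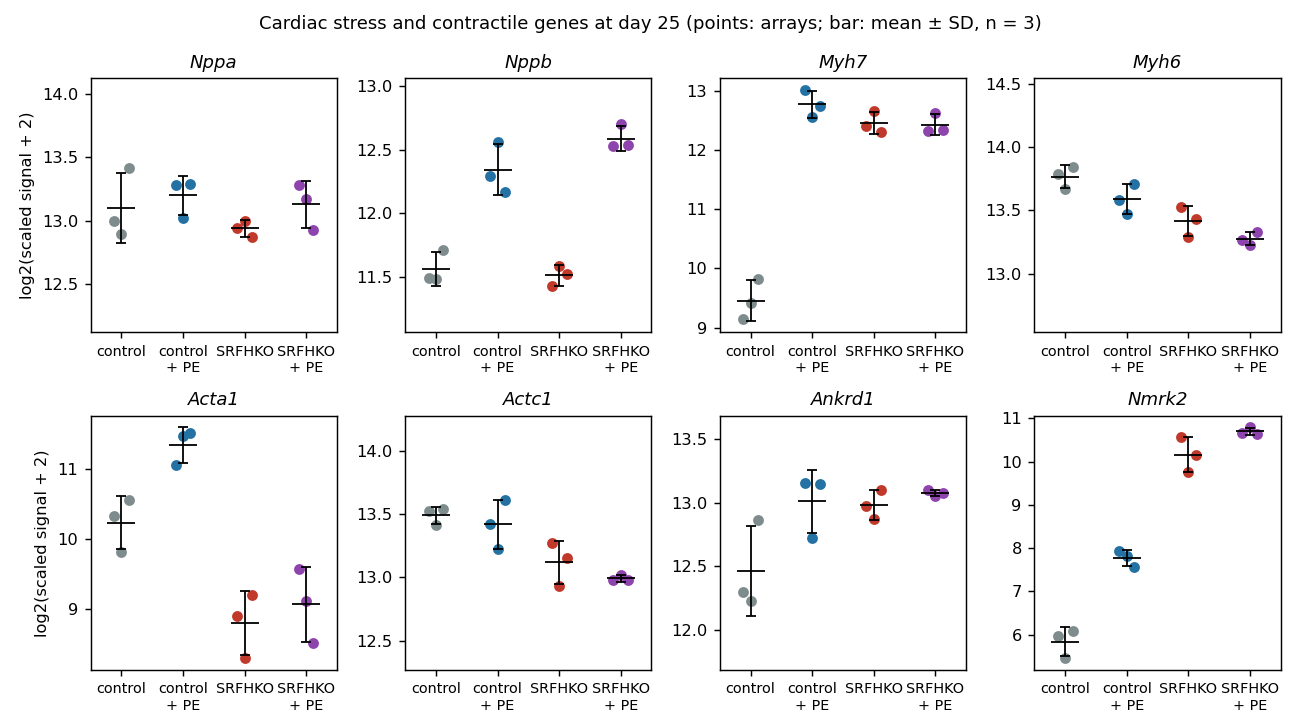
Level of 8 genes on each array of the 4 day 25 groups, as log2(scaled signal + 2), with the mean ± SD (n = 3) and a vertical axis of its own for each gene. Myh7 lies between 12.30 and 13.01 in SRFHKO and PE hearts, the Nppb mean is higher in both groups with PE, and Acta1 and Nmrk2 separate SRFHKO from PE hearts in opposite directions.

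Lists of genes chosen for the tissue are described by counts and medians. An unadjusted p below 0.05 was reached by 1423 of the 12610 genes, which is the background for such counts in the lists. Interferon response and antigen presentation genes were lower in SRFHKO by the largest median of the pathway lists, -0.70, against -0.00325 over all genes. The difference was above 0 for 0 of 40 members, 16 had an unadjusted p below 0.05, and 0 passed the test. Tap1, a peptide transporter for antigen presentation, came closest (-1.68 ± 0.35, adjusted p = 0.0653), followed by H2-K1, a class I antigen-presenting molecule (-0.90 ± 0.24, adjusted p = 0.131). The mean level of the list was 6.23, 7.12 and 7.89 in SRFHKO, 8.17, 7.07 and 8.49 in PE, and 8.01, 7.95 and 7.68 in untreated hearts. The groups overlapped, with PE replicate 2 below 2 of the SRFHKO hearts. Leaving out SRFHKO replicate 1 brought the median to -0.36, leaving out SRFHKO replicate 3 to -1.14 and leaving out PE replicate 2 to -1.17, so single hearts set its size.

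Extracellular matrix genes were also lower in SRFHKO than in PE hearts by their medians. Of 19 collagens, 16 were below 0, 4 had an unadjusted p below 0.05 and 0 passed, with a median of -0.47; Col8a1 and Col6a3 stood at -0.84 ± 0.25 (adjusted p = 0.169) and -0.85 ± 0.29 (adjusted p = 0.264). Of 30 matricellular and other matrix genes, Thbs4 alone passed, and the median was -0.27, with 9 genes above 0. At an unadjusted p below 0.05, 9 of the 30 were lower and 3 higher. Postn, periostin of activated fibroblasts, read 8.88, 8.54 and 9.15 in SRFHKO, 10.52, 10.20 and 10.43 in PE and 9.18, 8.95 and 8.76 in untreated hearts. SRFHKO hearts overlapped untreated ones, and PE hearts were above both. The difference of -1.52 ± 0.34 missed the threshold over 18 arrays (adjusted p = 0.079) and passed with the 12 arrays of day 25 (adjusted p = 0.0134). Mmp2, a matrix metalloproteinase, stood at -1.20 ± 0.27 (adjusted p = 0.079) in a list of 24 proteases and cross-linking enzymes of which 0 passed and 8 had an unadjusted p below 0.05 (median -0.22).

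Fibroblast markers share genes with these lists, among them Col1a1, Col1a2, Col3a1, Postn, Dcn, Lum, Mfap4, Fbln1 and Loxl1. The markers are therefore not a separate measure. Their mean level over 14 genes was 8.85, 8.56 and 8.94 in SRFHKO and 9.12, 9.13 and 9.19 in PE hearts, without overlap. In untreated hearts it was 9.17, 8.85 and 8.41. The median of the 14 differences was -0.14, with 6 of them above 0. By limma's test 0 passed, and 4 had an unadjusted p below 0.05, 2 in each direction. In ventricular tissue, fewer cells of a type and less RNA per cell cannot be told apart, and the part of fibroblast number in the matrix values was not tested.

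Among the pathway lists, differences of heat shock genes spanned the widest range, from -4.30 to 0.36. Of 24 measured, Hspb1 alone passed, the median was -0.19 and 16 were below 0. With the mean of the probe sets the median was -0.04. Hspa1b, an inducible Hsp70 chosen here after its values were seen, read 6.07, 6.67 and 6.95 in SRFHKO, 11.75, 9.37 and 11.47 in PE and 5.31, 5.50 and 5.89 in untreated hearts. All 3 PE hearts were above all others, and the difference of -4.30 ± 1.02 did not pass (adjusted p = 0.101). With the 6 arrays compared it did (adjusted p = 0.0097). In SRFHKO hearts with PE it read 6.62, 12.85 and 12.09, so 1 PE-treated heart was low. Its near-identical copy Hspa1a gave -3.13 ± 0.95 (adjusted p = 0.184), and a probe set may read both. Bag3, an Hsp70 co-chaperone, stood at -0.80 ± 0.19 (adjusted p = 0.0948). Of 28 endoplasmic reticulum chaperones and unfolded protein response genes, 0 passed and 26 were below 0, with a median of -0.21. An unadjusted p below 0.05 was found for 3 of the 28, a share near that of all genes (1423 of 12610). Hspa5, the main chaperone of the endoplasmic reticulum, stood at -0.85 ± 0.27 (adjusted p = 0.207).

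**Figure D4:**
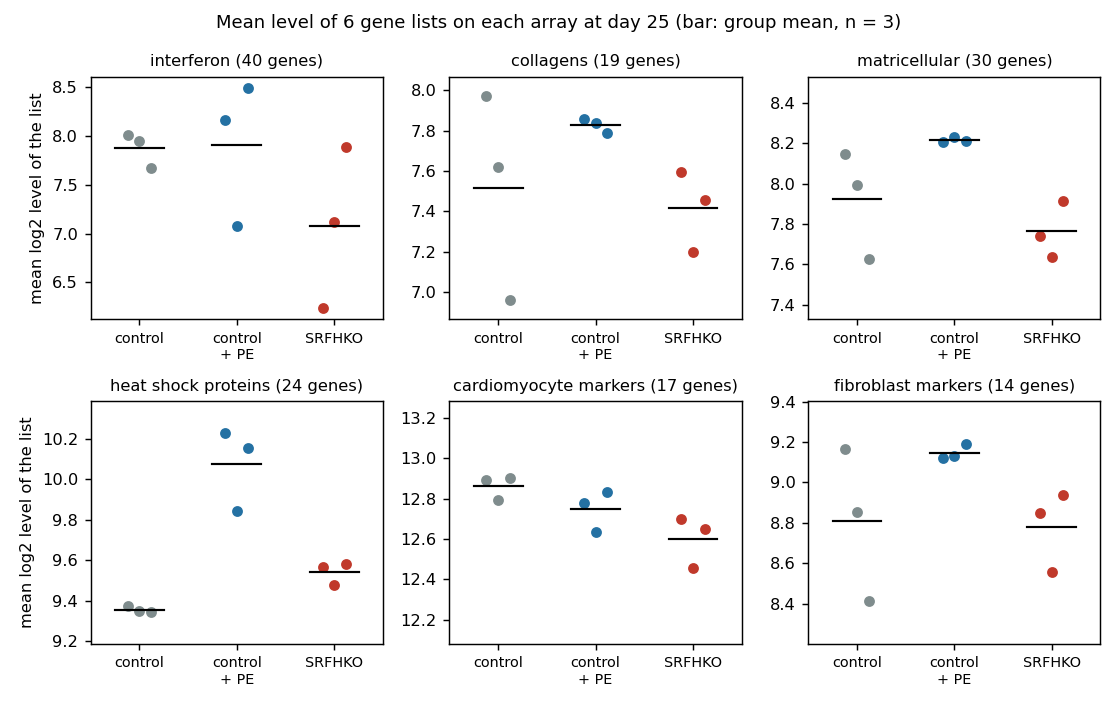
Mean log2 level of 6 gene lists on each array of untreated control, control with PE and SRFHKO hearts at day 25; points are arrays, bars group means (n = 3), and each list has its own vertical axis. PE hearts lie above SRFHKO hearts without overlap for collagens, matricellular genes, heat shock proteins and fibroblast markers. The groups overlap for the interferon list and for cardiomyocyte markers. Such separation is not particular to the lists shown, since endoplasmic reticulum chaperones, creatine kinase genes and complex I and II subunits (median -0.10) also lay apart in this way.

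Genes of energy metabolism reached like levels far more often than they separated the groups. Of 37 complex I and II subunits, 35 were at like levels and 0 passed, with 9 lower at an unadjusted p below 0.05 and a median of -0.10. Of 37 subunits of complex III, IV and ATP synthase, 35 were at like levels and Cox8a alone passed, with a median of -0.11. The counts at like levels were 22 of 24 for the TCA cycle and pyruvate oxidation (median -0.09), 18 of 20 for glycolysis and glucose uptake (median -0.09), 25 of 32 for fatty acid uptake and oxidation (median 0.01) and 27 of 33 for ribosomal proteins (median 0.04), with 0 past the threshold in each. At an unadjusted p below 0.05 these lists held 4, 3, 3 and 0 genes in that order. These stand beside 44.7% for all genes, and bright genes have narrower intervals: the median SE was 0.10 for complex I and II subunits and 0.20 for all genes. Like levels between the groups are not the untreated level. Against untreated hearts, complex I and II subunits had a median of -0.27 after deletion and of -0.13 under PE. After deletion 7 of 37 passed against untreated hearts, where 2.34% of all genes did. That comparison lost most of its calls with brightness as a covariate, and untreated arrays were dimmer than SRFHKO arrays before scaling.

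Of the lists named for SRF or the sarcomere, most members were at like levels in the structural ones and a minority among the immediate early genes. The structural shares were 61.1% of SRF-dependent actin and cytoskeletal genes and 58.8% of sarcomere genes, against 44.7% of all genes. Such shares also follow precision: the median SE was 0.17 for SRF-dependent, 0.11 for sarcomere and 0.27 for immediate early genes (0.20 for all genes). They therefore do not set these lists apart by themselves. Of 36 SRF-dependent actin and cytoskeletal genes, 22 were at like levels and Acta1 and Itgb1bp2 passed, both lower, with a median of -0.03 that became 0.04 when arrays were scaled to their medians and -0.05 with the mean of the probe sets. Of 34 sarcomere, Z-disc and M-line genes, 20 were at like levels and Acta1 and Tnnc1 passed, both lower, with a median of -0.06 that became 0.01 under that scaling. Of 21 immediate early SRF target genes, 5 were at like levels (23.8%, against 44.7% of all genes), 0 passed and 3 had an unadjusted p below 0.05 (median 0.03, or 0.0056 with the mean of the probe sets). Fos, the best known of them, read 7.50, 6.80 and 6.999 in SRFHKO and 4.52, 5.64 and 5.55 in PE hearts without passing (1.86 ± 0.53, adjusted p = 0.152). Mrtfa, which encodes an actin-regulated SRF cofactor, stood at -0.80 ± 0.18 (adjusted p = 0.079). Rgs2 and Grk5, which dampen Gq and adrenergic signalling, stood at 0.997 ± 0.30 (adjusted p = 0.173) and 0.73 ± 0.20 (adjusted p = 0.151). They belong to 30 adrenergic and Gq genes, of which 0 passed (median 0.01). An unadjusted p below 0.05 was found for 4 of the 30, beside 1423 of 12610 genes.

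**Figure D5:**
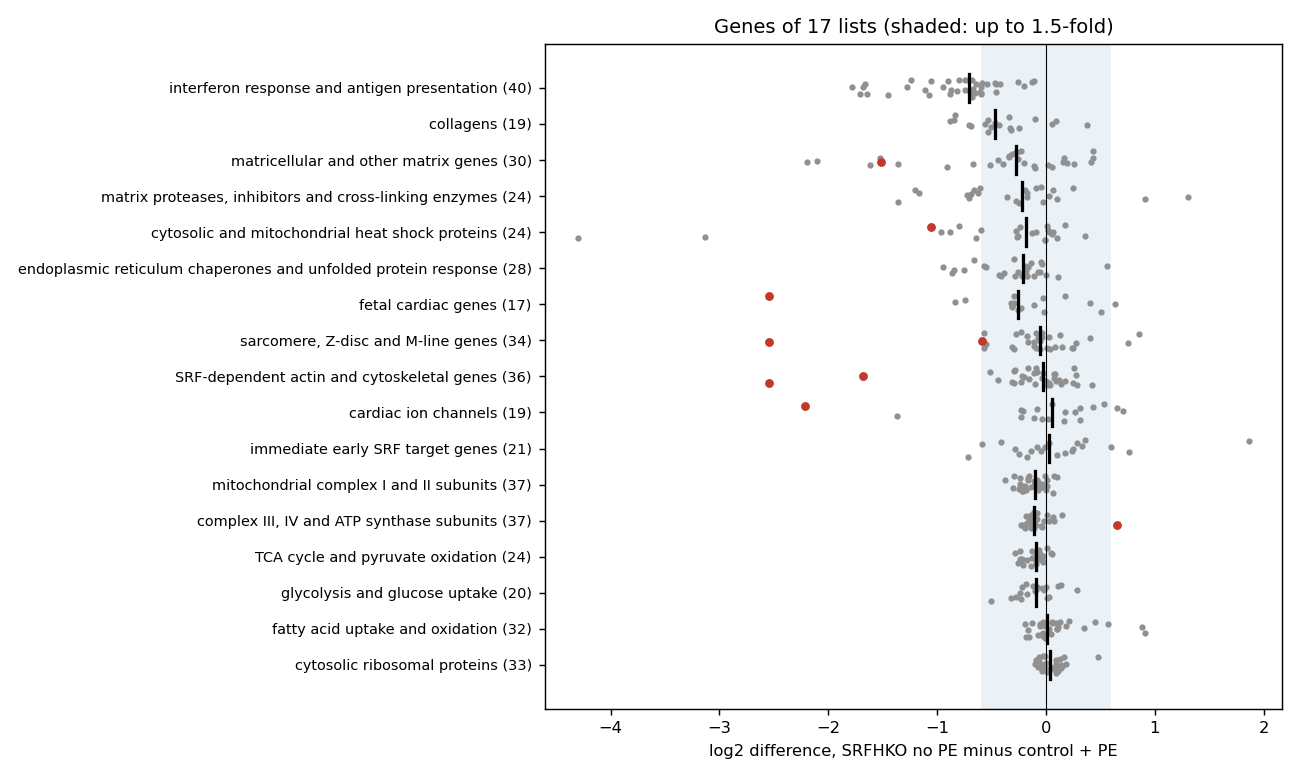
Log2 difference, SRFHKO without PE minus control with PE, for the measured genes of 17 lists (number in parentheses); points are genes, larger red points passed the test, black bars are list medians and the shaded band spans 1.5-fold either way. Interferon genes all lie below 0 (median -0.70), while respiratory chain, TCA cycle and ribosomal genes cluster inside the band, Cox8a being the exception.

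Markers of other cell types gave 0 calls by limma's test, apart from Ckm in the skeletal muscle list. Endothelial markers had a median of -0.09 over 15 genes and macrophage and monocyte markers -0.06 over 18 (0.01 when arrays were scaled to their medians), with 1 gene each at an unadjusted p below 0.05. Kdr, the endothelial VEGF receptor, stood at -0.82 ± 0.24 (adjusted p = 0.163). Of 10 neutrophil markers 3 were measured, with a median of -1.35; S100a9 read 3.33, 5.85 and 4.85 in SRFHKO and 6.95, 7.04 and 6.04 in PE hearts (adjusted p = 0.38), with 1 SRFHKO array below the filter limit. Adipocyte markers had a median of 0.41, with all 7 above 0 and 1 at an unadjusted p below 0.05, and their mean levels overlapped between the groups. Mesothelial markers had a median of 0.24 over 8 genes, of which 1 had an unadjusted p below 0.05. Erythroid and lung markers, with 3 measured genes each, had medians of 0.75 and 0.44, and 2 members of each were above 0. The erythroid gene Hbb-b2 gave -0.44 in the probe set used and 1.01 in its other. In the lung list Napsa stood at -1.64, with all 3 SRFHKO arrays and 1 PE array below the filter limit. With those arrays raised to the limit the difference was -0.49. Sftpc of that list had 1 array below the limit in each group. Of 11 B and plasma cell markers 6 were measured, with a median of -0.15 and 3 above 0. Igha, the IgA heavy chain of plasma cells, was the most variable, at 6.56, 7.74 and 4.79 against 10.02, 11.23 and 6.97 (adjusted p = 0.163). Ighm, another heavy chain gene of that list, stood at 0.99 in the probe set used and at -1.72 to 3.53 over all its probe sets.

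Measures of the arrays themselves were close or overlapped, apart from a Gapdh ratio and the share of probe sets above the filter limit. That share was 63.5% to 64.5% in SRFHKO, 64.6% to 67.6% in PE and 66.3% to 71.3% in untreated arrays. Before scaling, untreated arrays were dimmer than all SRFHKO arrays, with trimmed means of 46.6 to 68.5 against 71.2 to 83.5. Before scaling, the trimmed mean signal was 75.6 ± 6.89 in SRFHKO and 65.1 ± 11.6 in PE arrays (SD, n = 3 each; exact permutation test, two-sided, p = 0.3). The ratio of 3′ to 5′ Gapdh signal, a measure of RNA integrity, was 0.825 ± 0.0086 against 0.875 ± 0.028 without overlap (exact permutation test, two-sided, p = 0.1, the smallest that 3 against 3 can give). The part of this ratio and of the share above the limit in the differences was not tested. Pearson correlations of the arrays over genes were 0.959 to 0.967 within SRFHKO, 0.954 to 0.962 within PE hearts and 0.950 to 0.960 between the groups.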

How the data were processed

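The deposited table gives a linear intensity per array for 45101 probe sets. As the labels' protocols state, Trizol-extracted total RNA was made into biotinylated cRNA. Per the submitters' processing notes GCOS, the Affymetrix scanner software, was used; how it computed and scaled the signal is not stated there. Each array was scaled to a common 2% trimmed mean (90.6; arrays lay between 46.6 and 148), and log2 was taken after adding 2, which understates changes of dim genes. Control probe sets and those below the 40th percentile of the mean (log2 3.58) were left out, and each gene was read from its brightest probe set, an _x_at one only if no other served. Symbols came from the platform annotation, updated by gene ID to RefSeq names of GRCm38.p6.

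In limma 3.58.1 (R 4.3.3), one model with a mean for each of the 6 groups was fitted over the 18 arrays and all 12610 genes, with empirical Bayes and an intensity trend; p values are two-sided and Benjamini-Hochberg adjusted over all genes. Day 8 arrays and the other groups serve to estimate the spread. Where a group lay below the filter limit, the fold is computed with those arrays raised to it. The titles call the replicates biological. Members and gene lists were chosen with earlier results of these data known. Named genes are the largest differences among called, non-overlapping genes (up to 15 each way), genes called under PE, 25 core genes (24 measured) and, from each list, the called members or the 2 with the smallest p; Hspa1a, Hspa1b, Bag3 and Kcnd3 were added after their values were seen. Deviations of same-numbered arrays of both groups from their group means were weakly correlated (-0.0021 to 0.065). Before scaling, replicate 2 was the brightest and replicate 3 the dimmest array in every day 25 group. Trimmed means of replicates 1, 2 and 3 were 67.6, 75.3 and 52.5 in PE and 72.0, 83.5 and 71.2 in SRFHKO arrays. Whether the numbers pair hearts is therefore not settled. The steps were tested on simulated data. Alternatives covered scaling, pseudocount, filter, probe set, arrays fitted, trend, weights, brightness, a replicate block and leaving out arrays.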

Additional observations from a re-analysis of the deposited data

How the results depend on the processing

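The 21 calls of SRFHKO against PE hearts became 45 with only the 6 arrays compared (20 of the 21 among them) and 34 with array weights (all 21). They became 35 with the replicate number as a block over the 12 day 25 arrays (19 of the 21), which assumes a pairing that was not established. Leaving out 1 array gave 15 to 40 calls, 40 without SRFHKO replicate 1 and 34 without PE replicate 2. Under the 10 other settings run the count stayed within 1.5 times. Genes at like levels numbered 4593 to 6577. Of the 21, 11 passed under all 19 alternatives: Acta1, Ckm, Cox8a, Esr1, Hacd1, Itgb1bp2, Kcnip2, Nmrk2, Ptges3l, Thbs4 and Zfp30. Pdlim7 and Tnnc1 each missed once, Abhd1 4 times, Dusp1 and Prkg1 5, Asb2 6, Agtr1a, Gstp1 and Amph 7 (Amph of 18) and Hspb1 10 times. None of the 21 reversed. The alternatives for both comparisons with untreated hearts were added after seeing the data. The 295 calls of SRFHKO against untreated hearts became 849 on scaling to the median, 196 with 12 arrays, 147 without the trend and 39 with brightness as a covariate, and 56 to 397 on leaving out 1 array. The 4 calls of PE became 2 with quantile normalization, 9 on scaling to the median, 1 with the mean of the probe sets, 7 with 12 arrays and 1 without the trend, and 1 to 7 on leaving out 1 array. The cause was not tested. Scaling to the median moved the median of all genes to 0.06.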

Other observations

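Vascular, junction and survival genes gave differences between SRFHKO and PE hearts that missed the threshold of limma's test, and are given as values. Pgf, placental growth factor, read 5.56, 6.01 and 6.03 in SRFHKO and 5.14, 4.30 and 2.40 in PE hearts (1.92 ± 0.50, adjusted p = 0.127), with 1 PE heart far below the others and below the filter limit. With that array raised to the limit the difference was 1.53. Its receptor Flt1 stood at -0.54 ± 0.15 (adjusted p = 0.135). Gja1, the ventricular gap junction protein connexin 43, stood at 0.36 ± 0.15 (adjusted p = 0.378; -0.03 to 1.04 over its 6 probe sets), and Dsg2, a desmosomal cadherin, at 0.44 ± 0.17 (adjusted p = 0.325). For Gja1 the SRFHKO hearts passed against untreated hearts (0.74, adjusted p = 0.0177).

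Stbd1, which anchors glycogen to membranes, read 3.22, 2.80 and 2.22 in SRFHKO, 6.63, 5.59 and 3.75 in PE and 6.19, 6.49 and 5.91 in untreated hearts. All SRFHKO arrays lay below the filter limit, and SRFHKO hearts passed against untreated hearts (adjusted p = 0.0307) but not against PE hearts (adjusted p = 0.201). Bcl2l11, the death-promoting gene Bim, stood at -0.49 ± 0.19 (adjusted p = 0.348), with -0.50 to 0.33 over all its probe sets. Bcl2l2, a survival gene of the same family, stood at 0.34 ± 0.12 (adjusted p = 0.253), with -0.09 in its second probe set. Of the 19 measured genes of their list, 0 passed and 7 were at like levels, with a median of -0.04. Stat3, a transducer of gp130 cytokine signals, stood at -0.50 ± 0.14 (adjusted p = 0.151). Prkab2, a regulatory subunit of AMP-activated protein kinase, stood at -0.39 ± 0.12 (adjusted p = 0.201) and passed against untreated hearts after deletion (adjusted p = 0.00518).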
